A study of Mus musculus with 12 samples.

Results

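The proteasome is the barrel-shaped protease that degrades ubiquitin-tagged proteins. Its subunit genes were taken by symbol as every row named Psma, Psmb, Psmc or Psmd followed by a number, which gave 39 of the 24528 genes in the deposited table. Of these, 37 passed the filter on low values (6 or more libraries with no fewer than 10 estimated reads each), which 12224 genes passed in all. The data were poly-A RNA-seq of gastrocnemius, a calf muscle, from 12 male mice aged 4 months, each library from 1 mouse. The 6 WT mice were Ank2f/f, with floxed alleles of the gene for ankyrin-B, a membrane-skeleton adaptor, and no Cre. The 6 KO mice were Ank2f/f; HSA-Cre+, and both groups thus carried the floxed alleles. HSA-Cre is driven by a skeletal muscle actin promoter, so the other cell types of the tissue were not its target, and Ank2 was not measured by cell type here. Loss of Ank2 in skeletal muscle and the changes in gene expression that accompany it were the question of the study.

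The 20S core of the proteasome is a stack of rings. Alpha subunits (Psma) form the outer, gated rings, and beta subunits (Psmb) form the inner rings, in which Psmb5, Psmb6 and Psmb7 hold the catalytic sites. Interferon-induced Psmb8, Psmb9 and Psmb10 can take the places of Psmb5, Psmb6 and Psmb7, respectively, in newly made cores, which gives the immunoproteasome of immune and inflamed tissue. The 19S regulatory particle caps the core. Its base holds the Psmc ATPases, which unfold substrates, and its lid removes ubiquitin chains, and the non-ATPase subunits of both are encoded mostly by Psmd genes. Wasting muscle is known to raise proteasome and ubiquitin ligase transcripts as a group.

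Ank2 checked the labels. Its log2 value was 8.40, 8.98 and 9.22 at the lowest, median and highest of the WT libraries and 7.54, 7.68 and 8.03 in KO. The groups did not overlap, and the KO libraries held 33.1% ± 7.12 (SD, n = 6) of the mean WT level. The change was -1.15 (SE 0.14, limma adjusted p = 0.000877). Estimated depth ran from 12291041 to 18699767 reads per library, and tested members held from 10.0 to 5887 estimated reads in a library. All 10 muscle fibre markers were present, and limma called 0 of them between the groups (2 higher at an unadjusted p of 0.05). KO replicate 2 lay nearest to WT over the whole table, and 1517 genes were called without it against 757 with it. No proteasome member was called in either case. In tissue RNA, fewer cells of a type and less RNA per cell cannot be told apart.

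Values are on the log2 scale of the deposited table unless a percentage or reads are named, and a change is the KO mean minus the WT mean. In limma, with Benjamini-Hochberg adjustment over all 12224 genes and a threshold of 0.05, 6.19% of genes were called. None of the 37 tested proteasome members was among them. At an unadjusted p of 0.05 or less, 6 of the 37 members differed, where 26.0% of all genes did. All 6 were higher in KO (Psmb1, Psmb5, Psmb6, Psmc3, Psmc5 and Psmd10), as were 11.9% of all genes, and 0 were lower, as were 14.1% of all genes. With limma-voom, run on estimated reads, 0 members were called as well. Leaving out WT replicate 4 or KO replicate 4, or normalizing by quantiles, each gave 2 called members, Psmb6 and Psmc5. No member had groups that did not overlap, which 2.47% of all genes had (1.27% with KO above WT and 1.2% with KO below). The estimated changes ran from -0.20 to 0.30 with a median of 0.05, beside -0.01 over all genes, and 23 were positive and 14 negative. The median turned to -0.03 after a correction for transcript length and was 0.11 under quantile normalization. The 95% interval of the change spanned 0 for 31 members. For 36 of the 37 the interval on the deposited scale, which compresses low genes, stayed within 0.5 of 0, and the widest bound was 0.52, for Psmb6.

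**Figure D1:**
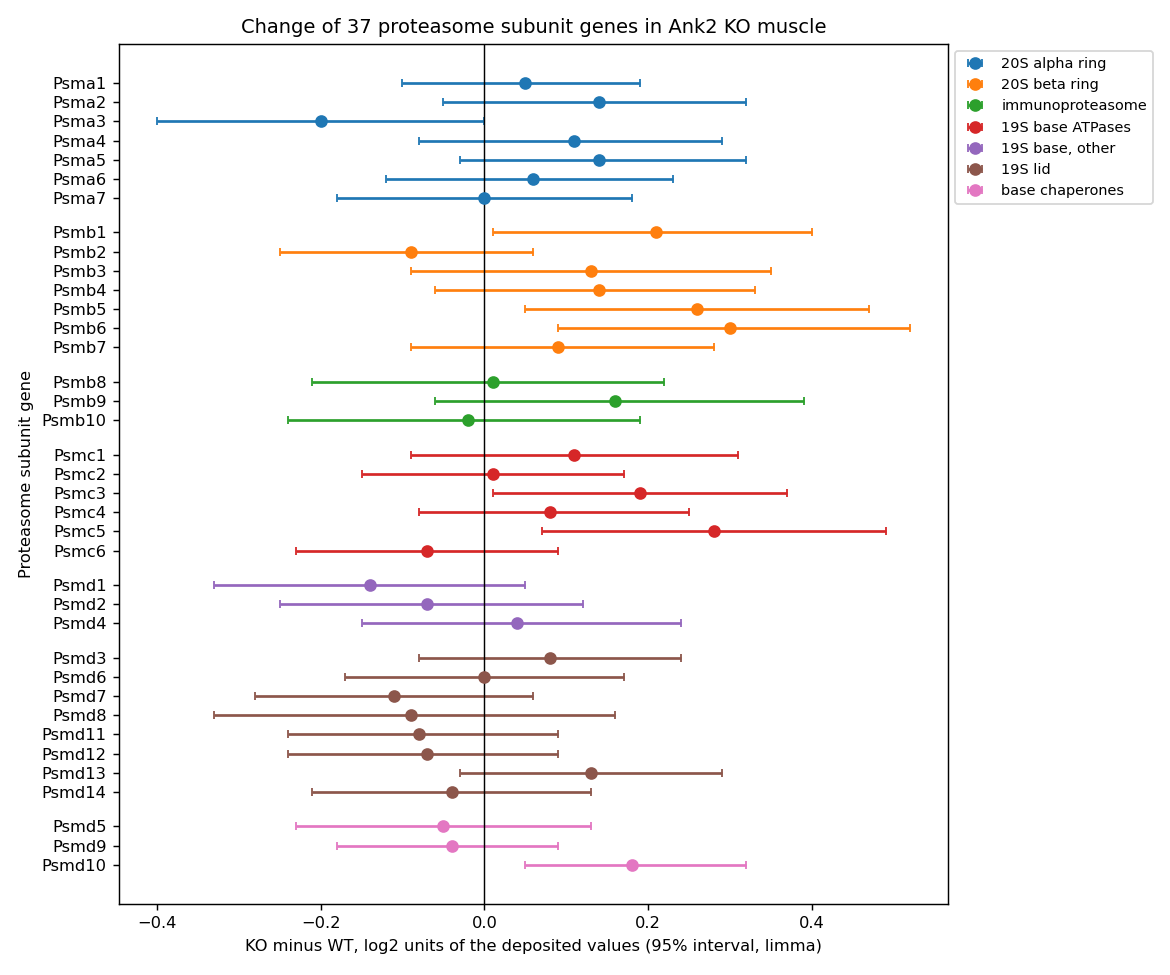
Change of each of the 37 tested proteasome members in KO against WT on the log2 scale (horizontal axis), with its 95% interval, grouped by class of subunit. Estimates lie between -0.20 and 0.30, and most intervals cross the line at 0.

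The beta ring, which encloses the catalytic chamber, had the highest median change of the classes. Of its 7 constitutive subunits, 6 had positive changes, with a median of 0.14 and a range of -0.09 to 0.30. Psmb6, the caspase-like catalytic subunit, read 10.83, 10.92 and 11.33 (lowest, median and highest) in WT and 11.02, 11.31 and 11.53 in KO. All 6 KO libraries lay above the WT median and 3 lay above every WT library. The change was 0.30 (SE 0.10, interval 0.09 to 0.52), equal to 124.4% ± 15.8 (SD, n = 6) of the WT level, and the limma adjusted p of 0.0817 missed the threshold. Without WT replicate 4 the limma adjusted p was 0.0321, and without KO replicate 4 it was 0.0417. These were the highest WT and the lowest KO library of Psmb6. Without WT replicate 3 the limma adjusted p was 0.181. Psmb5, the chymotrypsin-like subunit and the main target of bortezomib, read 10.62, 10.86 and 11.19 in WT and 10.91, 11.13 and 11.41 in KO. Its change was 0.26 (SE 0.10, interval 0.05 to 0.47, limma adjusted p = 0.124), at 120.3% ± 14.3 (SD, n = 6) of WT, and the groups overlapped although all 6 KO libraries were above the WT median. Psmb7, the trypsin-like subunit, read 11.61, 11.77 and 12.06 in WT and 11.70, 11.89 and 12.01 in KO. No KO library exceeded the highest WT library, and the change of 0.09 (SE 0.09, interval -0.09 to 0.28, limma adjusted p = 0.524) was within the spread of the libraries.

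In limma the structural beta subunit Psmb1 had a change of 0.21 (SE 0.09, adjusted p = 0.172), from 10.41, 10.56 and 10.81 in WT to 10.56, 10.78 and 10.99 in KO. Psmb2, another beta subunit without a catalytic site, had the lowest estimate of the ring. It read 9.54, 9.62 and 9.83 in WT and 9.49, 9.53 and 9.75 in KO, a change of -0.09 (SE 0.07, limma adjusted p = 0.427). Psmb2 libraries of the groups overlapped, with the KO libraries other than replicate 2 between 9.49 and 9.54.

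The promoters of Psmb5 and Psmb6 are shown because these catalytic subunits had the highest estimates of the core and because both windows hold the core of an antioxidant response element, the motif bound by the proteasome transcription factor NRF1 (Nfe2l1) and by NRF2. Sequences are from RefSeq, build GRCm38.p6, 5′ to 3′ on the strand of the gene, with the TGACNNNGC core in capitals. That of Psmb5 lies at chr14:54618023-54618245 on the minus strand, from 250 to 28 bases before the RefSeq start, and that of Psmb6 at chr11:70525107-70525356 on the plus strand, the 250 bases before the start.
Psmb5: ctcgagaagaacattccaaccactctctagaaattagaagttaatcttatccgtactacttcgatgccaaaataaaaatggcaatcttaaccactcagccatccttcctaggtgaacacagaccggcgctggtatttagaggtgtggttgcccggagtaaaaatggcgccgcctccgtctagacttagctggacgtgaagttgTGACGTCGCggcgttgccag
Psmb6: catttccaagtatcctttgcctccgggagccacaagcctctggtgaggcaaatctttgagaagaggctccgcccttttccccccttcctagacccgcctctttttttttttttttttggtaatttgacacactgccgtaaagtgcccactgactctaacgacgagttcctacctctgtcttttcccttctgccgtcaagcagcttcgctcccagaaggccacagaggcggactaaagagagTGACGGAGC
The core begins 47 bases before the start in Psmb5 and 9 bases before it in Psmb6. Searched on both strands over the 250 bases before each start, TGACNNNGC was in 5 of the 32 members with a RefSeq window (Psmb5, Psmb6, Psmc6, Psmd9 and Psmd12), beside 10.2% of all 32851 windows. For each motif here a member counts if any of its windows holds it. The 32 members have 34 windows, while the shares of all are per window, so the units differ. Of the 5 members with TGACNNNGC, Psmb5 (0.26) and Psmb6 (0.30) had positive estimates. Those of Psmc6 (-0.07), Psmd9 (-0.04) and Psmd12 (-0.07) were negative, and none of the 5 was called. The CCAAT box (CCAAT) was in 13 of the 32, beside 33.8% of all windows. The interferon gamma activated site (TTCNNNGAA) was in the window of 1 member, Psmb8, beside 7.02% of all. The core of the interferon-stimulated response element was in 3, Psmb3, Psmd4 and Psmd9, beside 2.98% of all, and in none of the immunoproteasome genes. A match is a run of letters, not a measured binding site.

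The alpha ring, whose subunits gate entry to the core, spread around 0, with 5 positive and 2 negative changes, a median of 0.06 and a range of -0.20 to 0.14. Psma3 had the lowest estimate of all members. It read 11.11, 11.29 and 11.56 in WT and 10.90, 11.09 and 11.25 in KO, so that no KO library lay above the WT median and 3 lay below every WT library. The change was -0.20 (SE 0.09, interval -0.40 to 0.00, limma adjusted p = 0.194), at 86.7% ± 9.81 (SD, n = 6) of WT. Psma5 had the highest estimate of the ring, at 9.59, 9.75 and 9.91 in WT and 9.72, 9.85 and 10.06 in KO. With 4 KO libraries above the WT median and 3 above all WT libraries, its change was 0.14 (SE 0.08, limma adjusted p = 0.281). Psma3 and Psma5 are partners in the same ring and differed in the sign of their estimates, and that difference was not tested. The 2 members outside the test were tissue-restricted forms. Psma8, the testis alpha subunit, lay above the floor of the table in 2 WT libraries only, at no more than 2.01 estimated reads. Psmb11, the thymus beta subunit, was at the floor in all 12 libraries.

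The immunoproteasome subunits were the lowest tested subunits of the core by level, and their estimates had a median of 0.01 with a range of -0.02 to 0.16. Psmb8 read 7.12, 7.34 and 7.57 in WT and 7.06, 7.34 and 7.67 in KO, where the groups covered nearly the same range. Its change was 0.01 (SE 0.10, interval -0.21 to 0.22, limma adjusted p = 0.967), on 59.8 to 130 estimated reads per library. Psmb10 read 7.69, 7.80 and 7.92 in WT and 7.37, 7.76 and 8.08 in KO. The KO libraries spread further (SD 0.26, n = 6) than the WT libraries (SD 0.09, n = 6), with 2 above and 2 below every WT library, and the change was -0.02 (SE 0.10, limma adjusted p = 0.909). Psmb9 read 6.27, 6.51 and 6.78 in WT and 6.51, 6.60 and 7.03 in KO. All 6 KO libraries were above the WT median but only KO replicate 1 was above every WT library. The change was 0.16 (SE 0.11, interval -0.06 to 0.39, limma adjusted p = 0.344). Off the compressed scale the Psmb9 estimate was 0.48 and 0.51 on scaled reads with pseudocounts of 1 and 0.1 and 0.53 in limma-voom, with adjusted p of 0.325, 0.324 and 0.288. Psmb9 was counted on 10.0 to 63.2 estimated reads per library, the fewest of any tested member, and its KO level of 137.6% ± 56.2 (SD, n = 6) of WT carried a spread as wide as the shift.

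**Figure D2:**
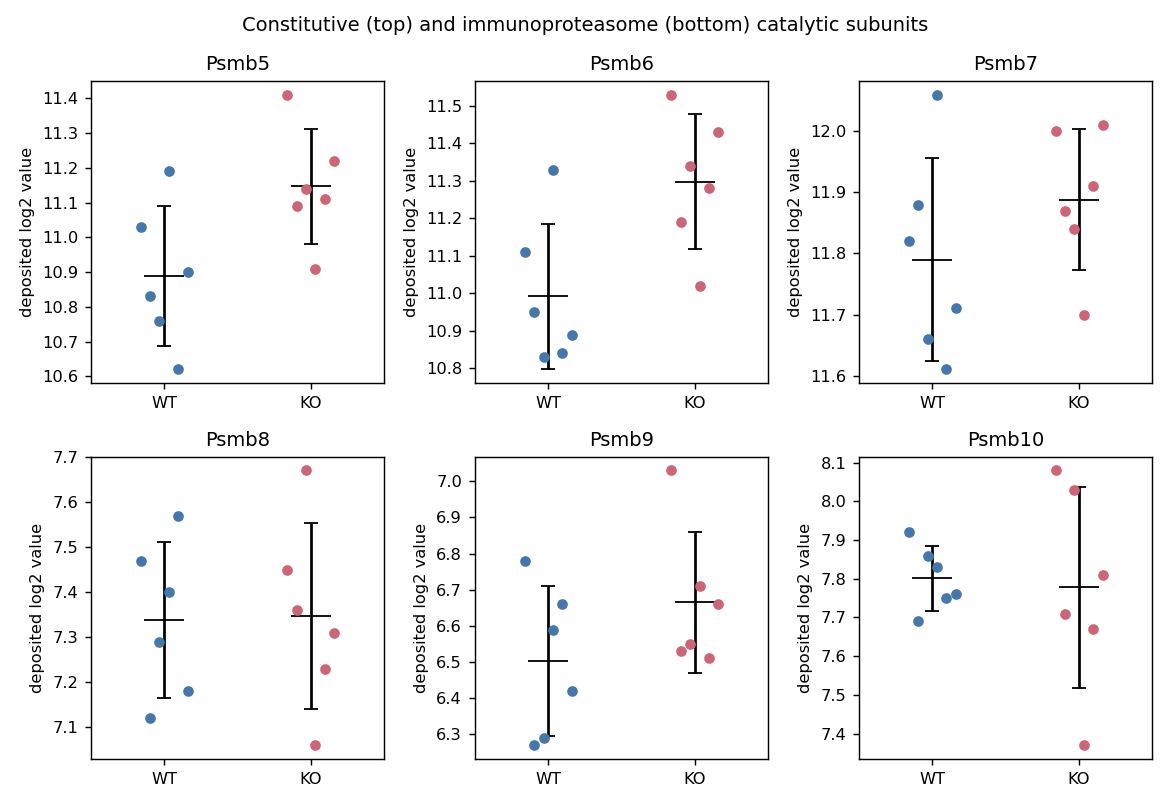
Deposited log2 value of each catalytic subunit and of its immunoproteasome counterpart in the 6 WT and 6 KO libraries, 1 point per library with the group mean. The constitutive subunits sit between 10.62 and 12.06 and the immunoproteasome subunits between 6.27 and 8.08 in both groups.

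Set against its counterpart per length of transcript, each immunoproteasome subunit was a few percent or less of the constitutive one. Psmb8 stood at 2.54% ± 0.778 (SD, n = 6) of Psmb5 in WT and 2.10% ± 0.505 (SD, n = 6) in KO. For Psmb9 the share of Psmb6 was 0.645% ± 0.27 (SD, n = 6) in WT and 0.713% ± 0.239 (SD, n = 6) in KO. For Psmb10 the share of Psmb7 was 3.57% ± 0.493 (SD, n = 6) in WT and 3.28% ± 0.776 (SD, n = 6) in KO. The ranges of the 2 groups overlapped in all 3 pairs. As log2 differences per library, KO minus WT was -0.25, -0.14 and -0.12 for Psmb8, Psmb9 and Psmb10 against their counterparts. The within-group SDs of these differences were 0.232, 0.201 and 0.19. For Psmb9 against Psmb6 the sign depended on the scale, with 0.17 on scaled reads and a pseudocount of 1. No test was run on these ratios.

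Markers of immune cells, in which the immunoproteasome is made constitutively, are given beside those values. The 8 leukocyte and antigen-presenting markers summed to 431, 742 and 2459 scaled reads at the lowest, median and highest of WT and to 705, 1518 and 2174 in KO. All 6 of them that were tested had positive changes (median 0.49) and 0 were called by limma, with 1 higher at an unadjusted p of 0.05. Macrophage markers summed to 421, 673 and 1541 in WT and 528, 925 and 1532 in KO, with 9 of 10 changes positive and 0 called by limma, and at an unadjusted p of 0.05 there was 1 higher and 1 lower. Lymphocyte markers were near the floor, with sums of 1.01 to 15.9 in WT and 4.99 to 14.3 in KO, and 0 of 10 passed the filter. The part of these cells in the level of Psmb8, Psmb9 and Psmb10 was not tested.

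Among the 19S genes the ATPases had mostly positive estimates and the lid did not. Of the 6 base ATPases, 5 changes were positive, with a median of 0.10 and a range of -0.07 to 0.28. Psmc5 read 10.88, 11.12 and 11.39 in WT and 11.13, 11.43 and 11.54 in KO, with 4 KO libraries above every WT library. The change was 0.28 (SE 0.10, interval 0.07 to 0.49), at 121.9% ± 12.1 (SD, n = 6) of WT, and the limma adjusted p was 0.0912. Without WT replicate 4 it was 0.042, and without KO replicate 4 it was 0.0467. These were the highest WT and the lowest KO library of Psmc5. Without WT replicate 3 the limma adjusted p was 0.2. Psmc3 read 11.36, 11.62 and 11.83 in WT and 11.66, 11.78 and 11.91 in KO. All its KO libraries were above the WT median, for a change of 0.19 (SE 0.09, limma adjusted p = 0.172). Psmc6 had the lowest estimate, from 10.60, 10.65 and 10.76 in WT to 10.39, 10.60 and 10.80 in KO. Here the KO libraries enclosed the WT range, and the change was -0.07 (SE 0.08, limma adjusted p = 0.567).

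The non-ATPase subunits of the base, which serve as scaffold and ubiquitin receptors, ranged from -0.14 to 0.04. Psmd1 read 11.58, 11.65 and 11.79 in WT and 11.27, 11.62 and 11.70 in KO, a change of -0.14 (SE 0.09, limma adjusted p = 0.321). The ubiquitin receptor Psmd4 read 10.93, 11.24 and 11.46 in WT and 11.12, 11.25 and 11.44 in KO, with the KO libraries inside the WT range and a change of 0.04 (SE 0.09, limma adjusted p = 0.811). The lid had 3 positive and 5 negative changes, a median of -0.06 and a range of -0.11 to 0.13. Psmd13 held its upper end, at 9.96, 10.06 and 10.33 in WT and 10.12, 10.24 and 10.31 in KO, a change of 0.13 (SE 0.08, limma adjusted p = 0.271). Psmd7, partner of the deubiquitinase Psmd14, held its lower end, at 11.29, 11.49 and 11.60 in WT and 11.20, 11.38 and 11.45 in KO. No KO library of Psmd7 was above the WT median, and the change was -0.11 (SE 0.08, limma adjusted p = 0.383).

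The 3 Psmd genes that encode chaperones of base assembly, which leave the finished particle, were expressed below the constitutive core and 19S subunits. Per kilobase of transcript they held 56.8 to 121 scaled reads in WT, beside 15.9 to 106 for the immunoproteasome subunits. Psmd10 (gankyrin) read 7.66, 7.80 and 7.86 in WT and 7.86, 7.96 and 8.08 in KO, and 5 of 6 KO libraries exceeded every WT library. The change was 0.18 (SE 0.06, interval 0.05 to 0.32), at 121.1% ± 10.5 (SD, n = 6) of WT, with a limma adjusted p of 0.0945. Psmd5 read 8.26, 8.40 and 8.49 in WT and 8.03, 8.36 and 8.56 in KO, with a change of -0.05 (SE 0.09, limma adjusted p = 0.729). The median change was 0.12 over the 14 constitutive core genes and 0.00 over the 17 genes of the 19S particle, and the difference between these medians was not tested.

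Per kilobase of transcript, the level of members ran from 15.9 scaled reads for Psmb9 to 2994 for Psmb7 in WT, and from 21.9 to 3193 for the same genes in KO. The median WT level was 892 for the alpha ring, 1516 for the constitutive beta ring, 1176 for the ATPases and 895 for the lid. It was 95.1 for the assembly chaperones and 50.3 for the immunoproteasome. Subunits that enter each particle in equal number thus differed in this level per length, by 7.95-fold from Psma2 to Psmb7 within the constitutive core. The catalytic subunits were at its upper end, with Psmb5 at 2021 ± 300 (SD, n = 6), Psmb6 at 2456 ± 365 (SD, n = 6) and Psmb7 at 2994 ± 360 (SD, n = 6) in WT. The fold depends on the 1 annotated transcript used per gene, of 2911 bases for Psma2 and 1160 for Psmb7. In estimated reads per library, Psma2 ran from 777 to 1523 and Psmb7 from 2606 to 4775. Psmb7 also shares 405 exon bases with Nek6.

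**Figure D3:**
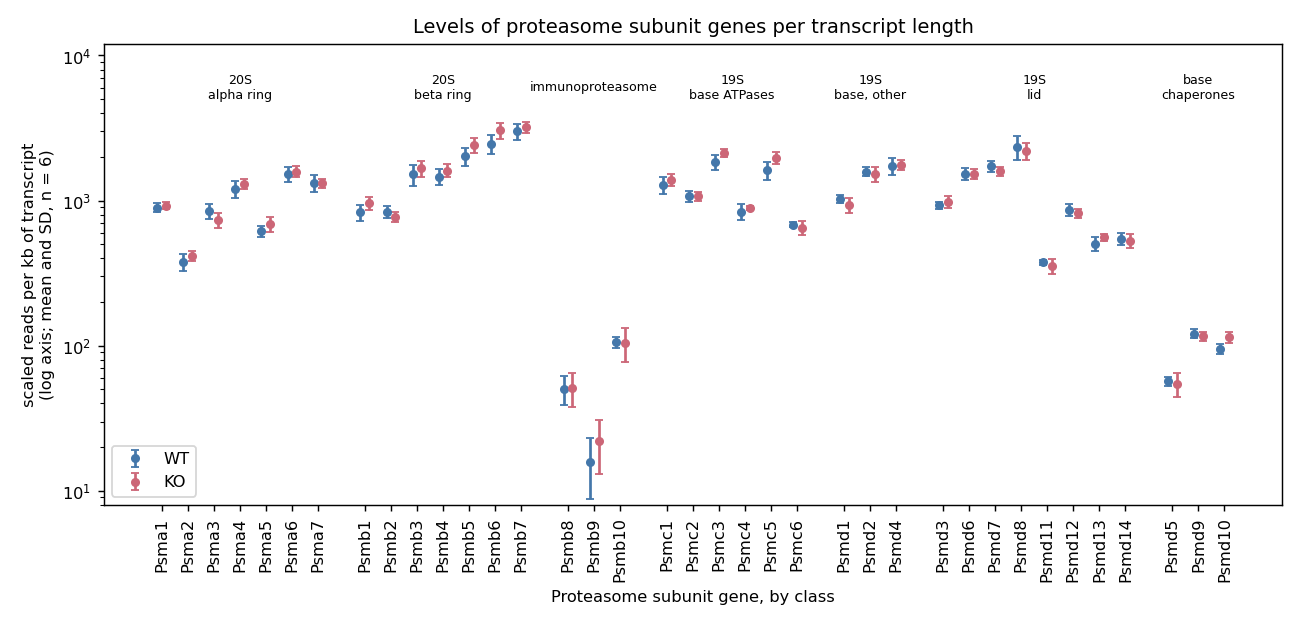
Level of each tested member in scaled reads per kilobase of transcript (log axis), as the mean (points) and SD (bars) of 6 WT and of 6 KO libraries. Constitutive core subunits lie between 377 and 2994 in WT, while Psmb8, Psmb9, Psmb10 and the assembly chaperones lie lower in both groups.

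Core subunits moved together between mice of the same group. The deviations from the group means correlated with a median Pearson r of 0.71 over the 91 pairs of constitutive core genes (range 0.18 to 0.94, n = 12 libraries), and with 0.78 among the ATPases and 0.65 within the lid. Core and ATPase genes shared a median r of 0.70 (range -0.36 to 0.97, 77 of 84 pairs above 0). Core and lid genes shared 0.49 (range -0.63 to 0.92), and core and immunoproteasome genes 0.26 (range -0.33 to 0.66). The 3 immunoproteasome genes had a median r of 0.40 with each other, 0.70 with the activator subunits Psme1 and Psme2, and 0.52 with the interferon-response list. With the MHC class I list it was 0.41 (range -0.82 to 0.77), and with the leukocyte markers 0.32. Constitutive core genes had a median r of 0.54 with Psme1 and Psme2. These values describe 12 libraries that share depth and composition differences, and no p is given. As means over the class relative to WT, the core ran from -0.19 (WT replicate 5) to 0.23 (WT replicate 4) in WT and from -0.05 to 0.20 in KO. The spread among WT mice was therefore wider than the mean KO shift of 0.09. The immunoproteasome mean ran from -0.19 to 0.18 in WT and from -0.17 (KO replicate 4) to 0.31 (KO replicate 1) in KO.

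**Figure D4:**
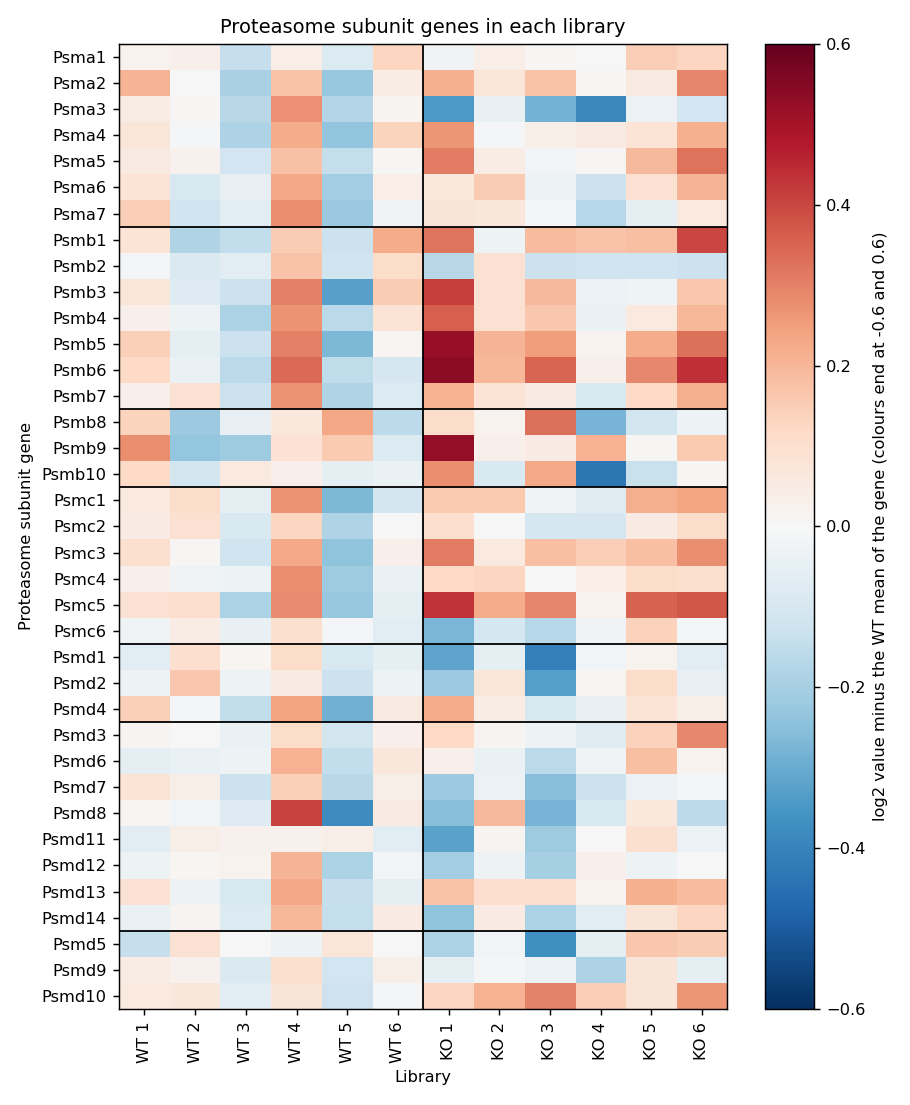
Value of each tested member in each of the 12 libraries relative to the WT mean of that gene (colour, log2 scale), with genes ordered by class. Many, but not all, core and ATPase rows change colour together from library to library, and single WT libraries depart from the WT mean as far as KO libraries do.

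Transcript length moved with the estimates. Over the 37 members the change correlated with length at Pearson r = -0.49 and Spearman rho = -0.42, and over 11994 tested genes at -0.27 and -0.33. Length was taken as log2 of the transcript bases for the Pearson r. Both are correlations across genes, which are not independent replicates. Of 18 members with a transcript under 1500 bases, 15 had a positive change (median 0.10), where 1297 of 1772 genes of that length did (median 0.09). Of the 19 longer members, 8 did (median -0.04), where the median of all longer genes was -0.03. After the length correction the change was 0.18 for Psmb6 (limma adjusted p = 0.128), 0.15 for Psmb5 (0.189), 0.21 for Psmc5 (0.104) and -0.21 for Psmb2 (0.0787). Exons of 11 tested members overlap another annotated gene, such as Psmb9 with Tap1 and Psmb8 with Gm20496, and the libraries did not keep strand, so reads there cannot be assigned to 1 of the genes. Processed pseudogenes are annotated for Psmb5, Psmb6 and Psmb7, and reads could be split between copies.

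Genes that act with the proteasome were read from lists by role, 70 genes in all that were tested, and 4 were called, 2 in each direction, beside 3.12% of all genes called higher and 3.08% called lower. At an unadjusted p of 0.05, 10 of the 70 were higher and 12 lower, beside 11.9% and 14.1% of all genes. Markers of other cells of the tissue are given next, against the same background of 3.12% of all genes called higher and 3.08% called lower. At an unadjusted p of 0.05 that background is 11.9% higher and 14.1% lower. Of 8 smooth muscle and pericyte markers, 0 changes were positive (median -0.31), with 1 called lower and 4 lower at an unadjusted p of 0.05, and their sum ran from 6484 to 8973 scaled reads in WT and from 4590 to 7911 in KO. All 3 tested adipocyte markers had negative changes (median -0.34, 1 called), with sums of 58 to 236 in WT and 31.9 to 126 in KO. Of 10 endothelial markers 1 was called lower (median -0.15), with sums of 5037 to 6609 in WT and 4268 to 6503 in KO. Among them 3 changes were positive, and at an unadjusted p of 0.05 there was 1 higher and 4 lower. Of 5 tested satellite cell markers 1 was called higher (median 0.09), with sums of 417 to 473 in WT and 473 to 594 in KO. The fibro-adipogenic (8 of 8 changes positive), Schwann cell (0 of 6) and erythroid (0 of 5) lists had 0 markers called. The part of these cells in the changes of the partner genes was not tested. Among the 20S assembly chaperones, all 5 changes were positive (median 0.13) and 1 gene rose. Their transcripts are of 555 (Psmg4) to 1579 bases (Pomp), and of all tested genes under 1500 bases, 1297 of 1772 had positive changes. The part of length in these changes was not tested. Psmg2, which pairs with Psmg1 to assemble the alpha ring, read 8.45, 8.54 and 8.70 in WT and 8.75, 8.95 and 9.11 in KO. The groups did not overlap. Psmg2 rose by 0.40 (SE 0.07, limma adjusted p = 0.00712), to 142.1% ± 16.1 (SD, n = 6) of WT. Pomp, which completes core assembly, had a change of 0.26 (limma adjusted p = 0.126).

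Psme4 fell. It encodes PA200, an activator that caps the core in place of the 19S particle and degrades without ubiquitin. Psme4 read 12.48, 12.55 and 12.74 in WT and 11.19, 11.80 and 12.43 in KO, with KO replicate 2 at 12.43 and KO replicate 1 at 11.19, so that every KO library was below every WT library. The change was -0.77 (SE 0.17, interval -1.14 to -0.40, limma adjusted p = 0.0231), at 60.5% ± 20.5 (SD, n = 6) of WT. The call was lost without any 1 of WT replicate 2, WT replicate 3, KO replicate 3 or KO replicate 6, where the adjusted p was 0.056, 0.0576, 0.0549 and 0.0582. Of the other activators, Psme2 (PA28 beta, interferon-induced) had a change of 0.24 (limma adjusted p = 0.107), Psme1 of 0.15 (0.453) and the inhibitor Psmf1 of 0.12 (0.294).

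**Figure D5:**
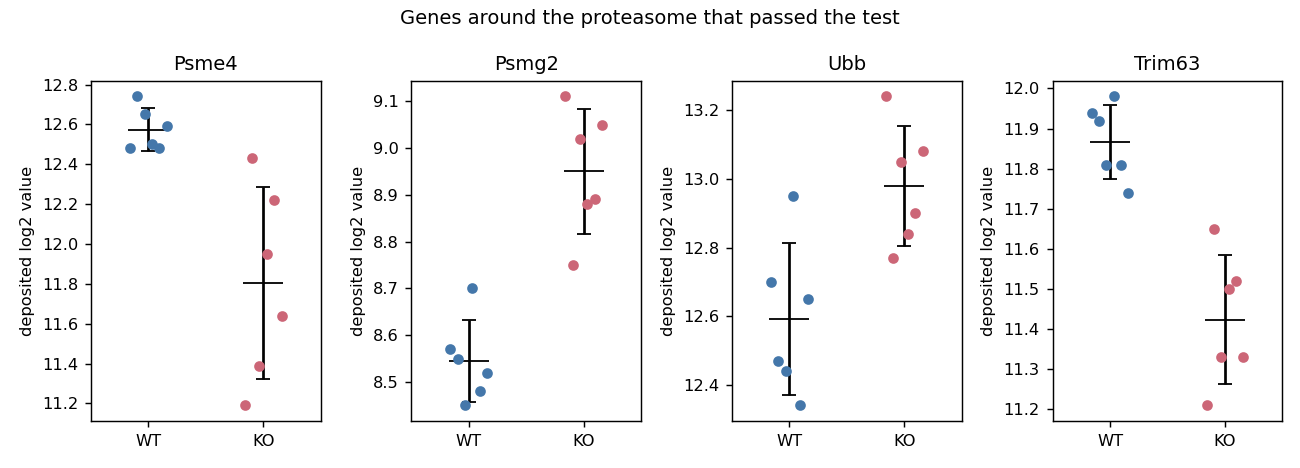
Deposited log2 values of the 4 called partner genes, Psme4, Psmg2, Ubb and Trim63, in the 6 WT and 6 KO libraries, with group means. Psme4 and Trim63 are lower and Psmg2 higher in every KO library than in any WT library, while Ubb overlaps.

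The ubiquitin genes and activating enzymes gave 4 positive and 2 negative changes. The polyubiquitin gene Ubb read 12.34, 12.56 and 12.95 in WT and 12.77, 12.98 and 13.24 in KO, with 3 KO libraries above every WT library. Ubb rose by 0.39 (SE 0.11, limma adjusted p = 0.0464), to 131.1% ± 16.4 (SD, n = 6) of WT, close to the threshold, and its call was lost under 10 of 22 alternatives. Rps27a, which encodes ubiquitin fused to a ribosomal protein, had a change of 0.36 (limma adjusted p = 0.0562). Of the 10 atrophy-related ligases, 8 had negative changes (median -0.15), 5 were lower at an unadjusted p of 0.05, as were 14.1% of all genes, and 1 fell. Trim63 (MuRF1), a muscle ubiquitin ligase, read 11.74, 11.86 and 11.98 in WT and 11.21, 11.41 and 11.65 in KO. Trim63 fell by 0.44 (SE 0.09, limma adjusted p = 0.0115), to 73.1% ± 8.51 (SD, n = 6) of WT, with no overlap of the groups. Fbxo32 (atrogin-1) had a change of -0.38 (limma adjusted p = 0.135) and Fbxo31 of -0.28 (0.0809).

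No gene of the other lists was called by limma or by limma-voom. Leaving out KO replicate 2 added calls of Ube3c and Rad23b (and of Rps27a, Fbxo31 and Fbxo32 above), and leaving out KO replicate 4 added calls of Ube3c, Erap1 and Sem1 (and of Rps27a). Leaving out KO replicate 5 added calls of Ube3c and Erap1, and the replicate block added Ube3c. Quantile normalization and leaving out WT replicate 4 each added Rps27a. Of the 70 partner genes, 9, 8 and 5 were called without KO replicates 2, 4 and 5, where 1517, 966 and 790 of the 12224 genes were. With the replicate block it was 5 beside 818 genes. Under quantile normalization it was 5 beside 862, and without WT replicate 4 it was 5 beside 882. NRF1 and the enzymes that release and process it all had negative changes (median -0.15 over 4 genes, 0 at an unadjusted p of 0.05), with Nfe2l1 at -0.14 (limma adjusted p = 0.413), Ngly1 at -0.21 (0.194) and Ddi2 at -0.16 (0.389). The 5 shuttle factors that carry ubiquitinated proteins to the 19S particle also had negative changes (median -0.13), 2 of them at an unadjusted p of 0.05, with Rad23b at -0.34 (limma adjusted p = 0.123). All 3 proteasome-bound deubiquitinases and ligase had negative changes, with 1 at an unadjusted p of 0.05, the ligase Ube3c at -0.47 (limma adjusted p = 0.0617). Transcripts of the NRF1, shuttle and deubiquitinase lists are of 1696 (Uchl5) to 9553 bases (Ddi2). Those of the atrophy-related ligases are of 1803 (Stub1) to 6976 (Fbxo32). Of all tested genes at or over 1500 bases, 5823 of 10222 had negative changes (median -0.03). The part of length in the changes of these lists was not tested. The 7 p97 cofactors in the table ranged from -0.23 for Faf1 to 0.25 for Nsfl1c, with 1 lower and 1 higher at an unadjusted p of 0.05. The remaining subunits Sem1 and Adrm1 had changes of 0.32 (limma adjusted p = 0.127) and 0.01 (0.973). In the interferon list, 7 of 12 tested changes were positive (median 0.03), and 2 genes were higher and 1 lower at an unadjusted p of 0.05, with Isg15 at 0.22 (limma adjusted p = 0.164) and Irf9 at 0.19 (0.178). In the list for antigen presentation by MHC class I, to which the immunoproteasome supplies peptides, 4 of 11 were positive (median -0.06) and 1 was lower at an unadjusted p of 0.05, with Erap1 at -0.27 (limma adjusted p = 0.0703), B2m at -0.16 (0.3) and Pdia3 at 0.10 (0.37). B2m was called after the length correction, at -0.27 (limma adjusted p = 0.0497).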

How the data were processed

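The authors deposited 1 table of log2 values per gene and library. Upstream tools in the submitters' processing notes were fastp, STAR and featureCounts on mm10, without versions. For the transformation no statement was found in header or labels. A lowest value of 5.5677 occurs in each of the 12 columns, as a variance-stabilised scale would have, so low values understate fold changes. Inverting that scale gave estimated reads, of which 80.0% to 92.0% of the low ones (up to 20 reads) were within 0.1 of a whole number. Those reads served the filter, levels and limma-voom. Percentages of WT and scaled reads come from the same inversion. The main test was limma 3.58.1 (R 4.3.3; trend and robust, group as the only term, Benjamini-Hochberg over 12224 genes) on the deposited values, with WT and KO taken from the labels. Each library is a separate mouse. Tested on simulated data for this comparison over 12224 genes, the fit called 84% of 100 genes given a change of 0.5 and 100% of 100 given a change of 1. It also called 11 genes given no change. Noise was drawn independently for each gene, and changes as small as the member estimates were not simulated. Lengths are of GENCODE M21 principal transcripts (longest basic one where none is marked), and promoters are from RefSeq.

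The members, gene lists and tests were chosen with earlier results of these data known. Values in every group are given for any member called, the 3 immunoproteasome subunits and their counterparts, and the highest and lowest change in each class. Psmb1 and Psmc3 were added after their values were seen. Of the pathway lists, called genes and up to 3 others by smallest p are named, except some that are not reported here. Promoter windows were not used for 7 members. Alternatives covered normalization, filters, pseudocounts, trend, the threshold, each library left out, the replicate number as a block and transcript length. Counts and ratios of classes have no test.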

Additional observations from a re-analysis of the deposited data

Results flagged for a closer look

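In each group of 6, the highest and lowest library was compared with its neighbour for 90 sets of values, and 1 stood apart by more than Dixon's 95% critical value. In the KO group, Psmb2 was 9.75 in KO replicate 2, while the other 5 KO libraries lay between 9.49 and 9.54. About 1 in 20 sets is expected to stand apart by chance.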

How the results depend on the processing

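No member was called in the reported fit, and 2 members, Psmb6 and Psmc5, were called under quantile normalization (adjusted p 0.0472 and 0.0424), without WT replicate 4 (0.0321 and 0.042) and without KO replicate 4 (0.0417 and 0.0467). Over 22 alternatives the highest limma adjusted p was 0.181 for Psmb6 and 0.2 for Psmc5, each without WT replicate 3. Leaving out each library in turn gave 0 to 2 members, 2 to 9 partner genes and 194 to 1517 genes called. A threshold of 0.1 gave 3 members (with Psmd10), 8 partner genes and 1613 genes. The median change of members ran from -0.03 (length correction) to 0.11 (quantile normalization). The log2 difference of Psmb9 against Psmb6 was 0.17 and 0.19 on scaled reads with pseudocounts of 1 and 0.1. Estimates near 0 changed sign. Psmb8 did so under quantile normalization (-0.01), without WT replicates 2 (-0.03) and 6 (-0.02), without KO replicates 1 (-0.01) and 3 (-0.06) and after the length correction (-0.04), with a range of -0.06 to 0.07 over single libraries left out. Psmb10 did so without WT replicate 1 (0.0007) and KO replicate 4 (0.06), with a range of -0.08 to 0.06. Psmc6 did so under quantile normalization (0.0014), Psmd4 without WT replicate 5 (-0.02, range to 0.09) and after the length correction (-0.03), and Psmd5 without KO replicate 3 (0.01, range from -0.10) and after the length correction (0.0008). The cause was not tested. The length correction and the alternatives for partner genes and ratios were chosen after seeing the data.

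Replicate numbers did not pair the mice throughout: deviations of same-numbered libraries correlated from -0.36 to 0.291. The same-numbered WT library was the best match for KO replicates 1 (0.291) and 2 (0.19) and not for the other KO replicates. With the replicate block, 818 genes, 0 members and 5 partner genes (Ube3c added) were called, and the median change of members was 0.05. Read depth limits Psmb9 most.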
